A study of Sus scrofa with 12 samples.

Results

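BTG/TOB adaptors and CCR4-NOT deadenylases were followed at the RNA level in early porcine embryos in which CCNB2, the mitotic cyclin B2, was knocked down. The set held 10 genes, taken from the count table by their symbols: the adaptors BTG4, BTG1, BTG3, TOB1 and TOB2, the nucleases CNOT6, CNOT6L, CNOT7 and CNOT8, and the RNA-binding protein ZFP36L2. They were 10 of 29329 genes in the table and 10 of the 17995 that had enough counts to be tested. Embryos came from in vitro fertilization (IVF) of oocytes that were collected from slaughtered gilts and matured in culture, with semen of Landrace boars. Each of the 12 libraries was made by SMART-seq, an oligo(dT)-primed full-length cDNA method, from a pool of several whole embryos. The 4 groups held 3 libraries each and are called here by their titles.

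The con-2c and con-4c libraries came from IVF embryos labelled as blank controls. The si-2c and si-4c libraries came from IVF embryos injected after fertilization with a small interfering RNA (siRNA) against CCNB2. All embryos shared the IVF and culture steps. The paper calls the controls normal embryos and also the negative control group of the CCNB2 siRNA. With the label of blank control, the sources do not settle whether they were themselves injected. Titles and tissue labels give opposite stages in all 12 libraries, those titled 2c being labelled as 4-cell embryos and the reverse. The groups are therefore named by title only, and no stage is assigned beyond it. Differences are given as con-4c over con-2c (the control contrast), si-4c over si-2c (the knockdown contrast), si-2c over con-2c (the 2c contrast), si-4c over con-4c (the 4c contrast), and 2 crossed contrasts that are spelled out.

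Removal of the poly(A) tail is the first step in the decay of most mRNAs, and most of it is carried out in the cytoplasm by the CCR4-NOT complex. The complex carries 1 nuclease of the CCR4 type, CNOT6 or CNOT6L, and 1 of the CAF1 type, CNOT7 or CNOT8. Proteins of the BTG/TOB family bind the CAF1-type nuclease through a shared N-terminal domain, and in mammalian oocytes BTG4 is the member best known for bringing the complex to maternal mRNAs, which are cleared around the start of zygotic transcription.

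A pair of siRNA sense strands against CCNB2 was designed for the study, and they are shown because the contrast between the si and con libraries rests on them. Which of them was injected for these libraries is not given in the sources used here. Both are 19 bases long and are written 5′ to 3′ in lower case, with no part picked out in capitals.
Si-CCNB2-2: gcuuauaccaguucccaaa
Si-CCNB2-1: gcagguccacuccaaguuu

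The libraries held 27785233 to 39510908 counts. CCNB2, the target, was at 464 ± 21.7 CPM (the count scaled to library size; SD, n = 3) in con-2c and 475 ± 41.9 in con-4c. It was at 42.6 ± 3.65 in si-4c and 22.7 ± 5.58 in si-2c, so every si library was below every con library. DPPA2 and EIF1AX, genes switched on with the zygotic genome, had opposite orders of the titled stages in the con and si arms. Their means were 36.8 and 33.2 CPM in con-2c and 39.8 and 40.1 in si-4c, against 171 and 174 in con-4c and 87.5 and 89.4 in si-2c. All 12 genes of an oocyte marker list had counts in every group. Their summed level was 5579 to 5676 CPM in con-2c and 5125 to 5284 in si-4c. It was 3843 to 3952 CPM in con-4c and 4066 to 4171 in si-2c. Not every gene of the list followed the sum. The means of OOEP and ZP4 were 1338 and 1124 CPM in con-2c, against 371 and 528 in con-4c. KPNA7 was at 1040 CPM in con-2c and 1014 in con-4c. BMP15 and DDX4 had higher means in con-4c than in con-2c, BMP15 at 985 against 887 CPM. Of 13 cumulus and granulosa markers 11 were in the table, with sums of 16.0 to 20.4 CPM in con-2c, 18.4 to 20.6 in si-4c, 20.8 to 25.1 in con-4c and 21.2 to 25.2 in si-2c, and CYP11A1, HAS2 and FOXL2 were at 0 in all groups but con-4c, where all 11 had counts. These 11 did not move together. NR5A2 was at 0.12 CPM in con-2c, 0.17 in si-4c, 6.01 in con-4c and 3.04 in si-2c. The means of GREM1 and CYP19A1 were 9.72 and 0.71 in con-2c and lower in con-4c, at 7.47 and 0.21. Of 9 sperm markers 3 were in the table and summed to at most 1.76 CPM in any library. The part of these markers in the results below was not tested. In libraries of whole embryos, fewer cells of a type and less RNA per cell cannot be told apart.

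BTG4 (ENSSSCG00000015020; Sscrofa11.1, chr9:39253116-39281327) was among the genes with the most counts in every library, between rank 5 and rank 8 of all genes. It was at 20183, 20098 and 15431 CPM in con-2c, at 20921, 19306 and 18786 in si-4c, at 7150, 7991 and 7904 in con-4c, and at 7835, 8874 and 6982 in si-2c. All libraries of con-2c and si-4c lay above all libraries of con-4c and si-2c. BTG4 changed by -1.27 on the log2 scale (SE 0.11) in the control contrast, with an adjusted p of 7.69e-08 in edgeR's quasi-likelihood test (Benjamini-Hochberg over all genes tested, used throughout). It also fell in the 2c contrast, at -1.23 (adjusted p = 1.99e-07, edgeR), and rose in the 4c contrast, at 1.36 (adjusted p = 3.55e-08, edgeR). In the knockdown contrast it rose by 1.32 (adjusted p = 9.37e-08, edgeR), the opposite of the control contrast.

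The replicates of a group are separate pools, and these p-values measure the spread between pools. Contrasts that name the same group share its libraries and are not independent of each other. For BTG4 the 95% interval of the log2 difference of si-4c from con-2c ran from -0.14 to 0.31, and that of si-2c from con-4c ran from -0.18 to 0.26. BTG4 thus had a high pair of groups, con-2c and si-4c, and a low pair, con-4c and si-2c, and within neither pair did its groups differ beyond the spread of the libraries.

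**Figure D1:**
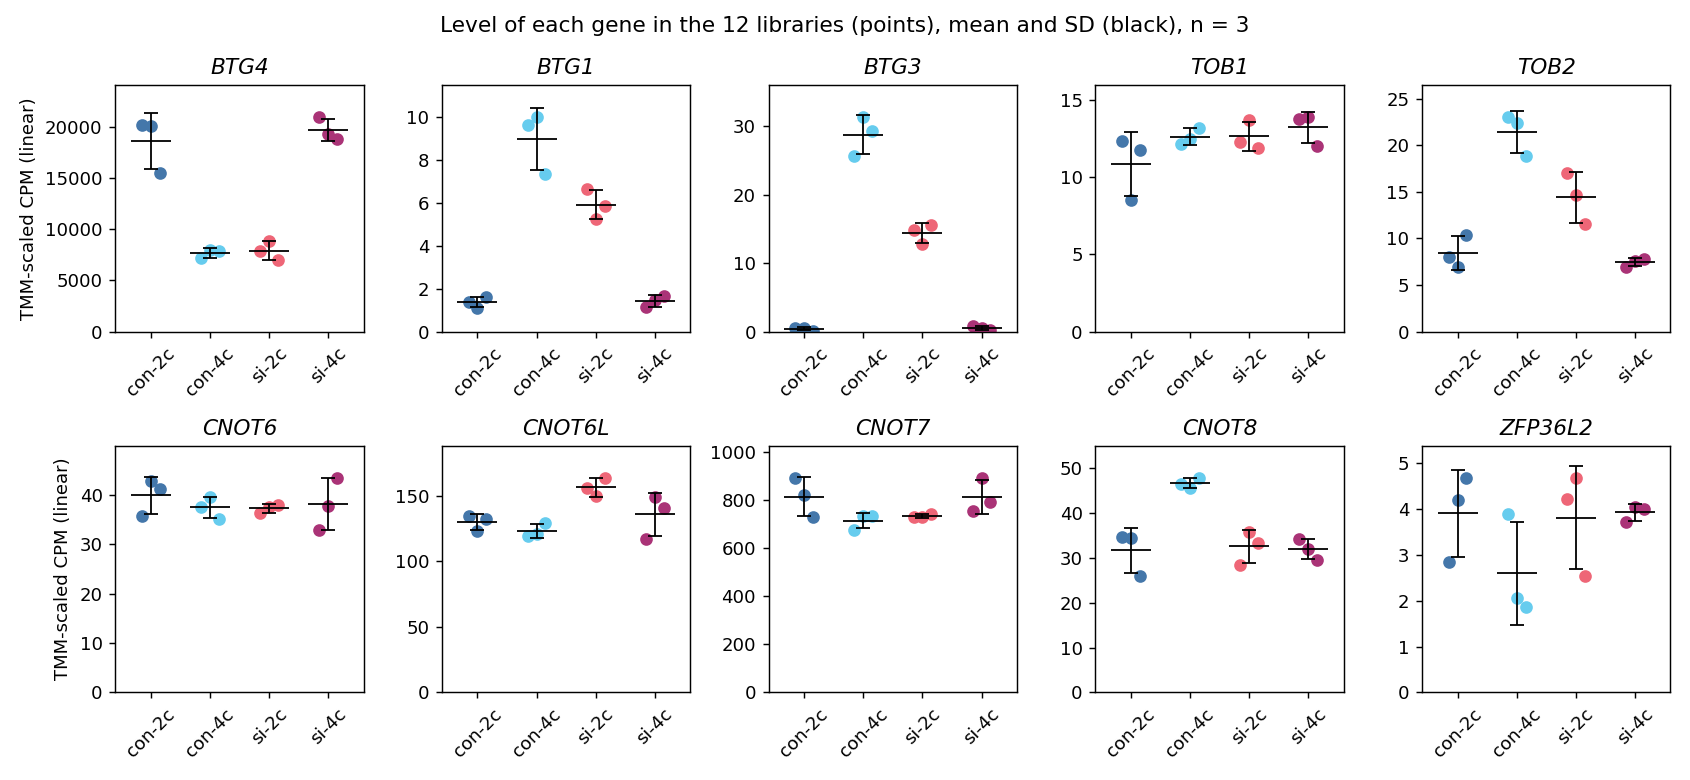
Level of each of the 10 genes in every library, in CPM on linear axes that start at 0 and have their own scale for each gene, by group. Points are libraries, and black bars are the group mean and SD (n = 3). BTG4 is high in con-2c and si-4c, BTG3, BTG1 and TOB2 are high in con-4c and si-2c, and the nucleases stay within a narrow range.

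Of the other adaptors, 3 moved the opposite way to BTG4. BTG3, a family member known as a brake on cell proliferation, rose from at most 19 counts in a con-2c library to at least 780 in a con-4c library. BTG1, which is widely expressed and best known from lymphocytes and other quiescent cells, and TOB2, an adaptor that also carries motifs for binding cytoplasmic poly(A)-binding protein, were higher in the same groups as BTG3. TOB1, the close relative of TOB2, did not pass in any contrast with TMM scaling, though with library totals as the only scaling it passed in the control contrast (0.48, adjusted p = 0.0272, edgeR), the 2c contrast (0.61) and the interaction (-0.80).

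BTG3 (ENSSSCG00000012014; chr13:182209850-182228626) was at 0.605, 0.565 and 0.154 CPM in con-2c, where the libraries held 5 to 19 counts of it. It was at 0.900, 0.549 and 0.299 CPM in si-4c, from 10 to 30 counts, against 25.7, 31.3 and 29.3 in con-4c and 14.9, 12.8 and 15.6 in si-2c. No library of con-2c or si-4c came near one of con-4c or si-2c. The log2 change was 6.02 (SE 0.32, adjusted p = 2.34e-10) in the control contrast and -4.62 (adjusted p = 6.43e-09) in the knockdown contrast by edgeR. It was 5.02 (adjusted p = 4.09e-09) in the 2c contrast and -5.62 (adjusted p = 3.22e-10) in the 4c contrast, again by edgeR. These values rest on few counts in the low groups, and leaving out 1 library at a time kept the first between 5.58 and 6.29.

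BTG1 (ENSSSCG00000035790; chr5:90815194-90817936) was at 1.37, 1.13 and 1.60 CPM in con-2c and at 1.14, 1.47 and 1.67 in si-4c. It was at 9.64, 10.01 and 7.35 CPM in con-4c and at 6.65, 5.28 and 5.86 in si-2c. The groups separated as for BTG3, by a smaller distance. BTG1 changed by 2.72 on the log2 scale (SE 0.24, adjusted p = 1.1e-07, edgeR) in the control contrast and by 2.12 (adjusted p = 3.01e-06) in the 2c contrast. It changed by -2.65 (adjusted p = 1.35e-07, edgeR) in the 4c contrast and by -2.05 (adjusted p = 3.97e-06) in the knockdown contrast.

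TOB2 (ENSSSCG00000037958; chr5:7086397-7098643) was at 7.99, 6.92 and 10.4 CPM in con-2c and at 6.99, 7.63 and 7.82 in si-4c. It was at 23.0, 22.4 and 18.9 CPM in con-4c and at 17.0, 14.7 and 11.5 in si-2c. The low groups again were con-2c and si-4c, and none of their libraries reached the lowest library of si-2c. TOB2 changed by 1.34 (SE 0.17, adjusted p = 9.94e-06, edgeR) in the control contrast and by 0.77 (SE 0.17, adjusted p = 0.00255) in the 2c contrast. It changed by -1.52 (adjusted p = 2.72e-06, edgeR) in the 4c contrast and by -0.94 (adjusted p = 5.13e-04) in the knockdown contrast.

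TOB1 (ENSSSCG00000040773; chr12:27116579-27119906) kept to 8.50 to 13.9 CPM over all 12 libraries, with group means of 10.9 ± 2.08 in con-2c, 13.2 ± 1.03 in si-4c, 12.6 ± 0.551 in con-4c and 12.6 ± 0.949 in si-2c (SD, n = 3). The ranges of all 4 groups overlapped. Its log2 difference in the control contrast was 0.21, with a 95% interval of -0.10 to 0.53.

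Summed over the adaptors other than BTG4, the order of the groups was con-4c, si-2c, then si-4c and con-2c together, an order that TOB1, whose mean was highest in si-4c, did not follow. The summed level of BTG1, BTG3, TOB1 and TOB2 was 71.8 ± 3.90 CPM in con-4c, 47.4 ± 3.07 in si-2c, 22.7 ± 0.855 in si-4c and 21.1 ± 3.57 in con-2c (SD, n = 3). The libraries of con-4c (68.8 to 76.2), of si-2c (44.9 to 50.8) and of the other groups (17.1 to 24.0) did not overlap. BTG3 made up 40.1% ± 3.23 of the counts of these 4 genes in con-4c and 30.5% ± 3.73 in si-2c, but 2.22% ± 1.40 in con-2c and 2.55% ± 1.31 in si-4c. TOB1 made up 51.4% ± 3.44 in con-2c and 58.1% ± 2.70 in si-4c, against 17.6% ± 1.44 in con-4c and 26.8% ± 2.67 in si-2c. BTG4 still held between 99.0% and 99.9% of the counts of the 5 adaptors in every library. These are shares of counts, which are not corrected for transcript length, so they compare groups and not molecules of different genes.

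**Figure D2:**
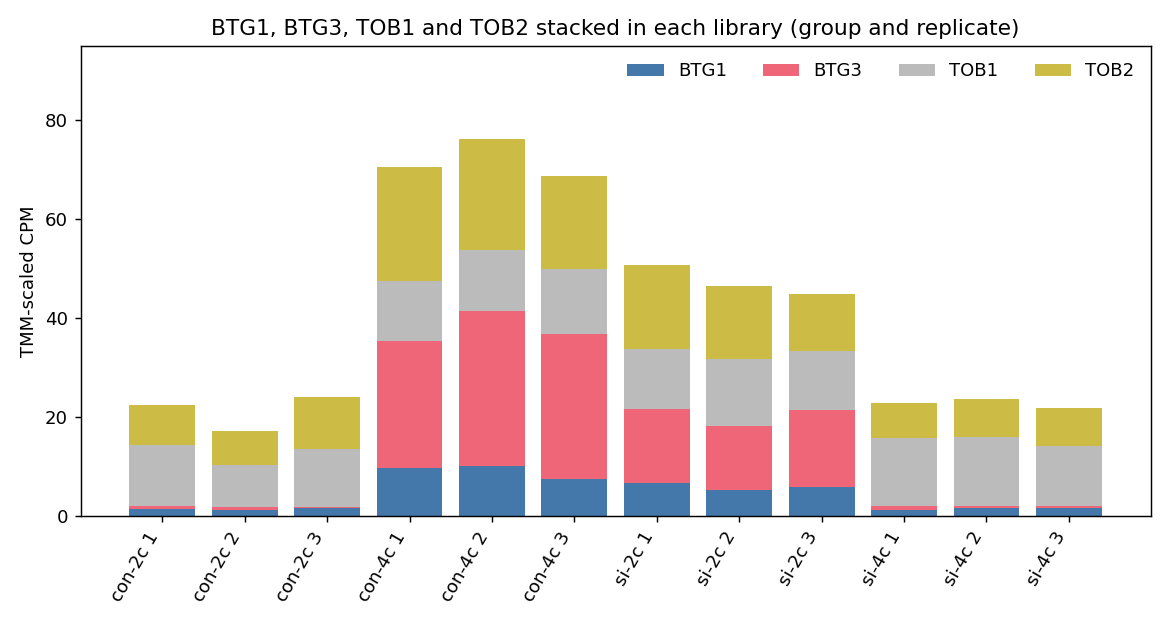
Summed level of BTG1, BTG3, TOB1 and TOB2 in each library, in CPM, as stacked bars that start at 0, one bar for each library. The con-4c bars reach 68.8 to 76.2 CPM and the si-2c bars 44.9 to 50.8, while con-2c and si-4c stay at or under 24.0 with almost no BTG3.

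With TMM scaling the nucleases moved over a narrower range than BTG4, BTG3, BTG1 and TOB2. Over the 12 libraries the log2 level had a range of 0.40 for CNOT6, 0.48 for CNOT6L, 0.40 for CNOT7 and 0.88 for CNOT8, against 0.70 for TOB1, 1.58 for BTG4, 1.72 for TOB2, 3.08 for BTG1 and 7.21 for BTG3. CNOT8, the less well studied of the CAF1-type nucleases, was the one that stood apart in con-4c. CNOT6L, a CCR4-type nuclease with a known part in maternal mRNA decay in the mouse oocyte, was highest on average in si-2c.

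CNOT7 (ENSSSCG00000006983; chr17:4934379-4950093), a CAF1-type nuclease, was at 891, 818 and 730 CPM in con-2c and at 752, 888 and 791 in si-4c. It was at 676, 731 and 733 CPM in con-4c and at 728, 730 and 741 in si-2c. The con groups overlapped, while every si-4c library was above every con-4c library. The log2 difference was -0.19 (SE 0.08, adjusted p = 0.0936, edgeR) in the control contrast and 0.18 (adjusted p = 0.10, edgeR) in the 4c contrast. The first passed without con-2c replicate 3, at -0.29 (adjusted p = 0.0111, edgeR), and with library totals as the only scaling both reversed, to 0.089 and -0.072. In the 2c contrast CNOT7 was at -0.15 and, with library totals, passed in the other direction at 0.25 (adjusted p = 0.0170, edgeR), as it did in the knockdown contrast, at 0.14 with TMM scaling and -0.24 with library totals (adjusted p = 0.0247, edgeR).

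CNOT8 (ENSSSCG00000017067; chr16:68329785-68352020) was at 34.5, 34.5 and 25.9 CPM in con-2c, at 34.1, 32.0 and 29.5 in si-4c, at 46.3, 45.5 and 47.8 in con-4c and at 28.4, 35.8 and 33.3 in si-2c. The 3 con-4c libraries were above all 9 others, which overlapped. CNOT8 changed by 0.56 on the log2 scale (SE 0.12, adjusted p = 0.00141, edgeR) in the control contrast, by -0.55 (adjusted p = 0.00167) in the 4c contrast and by -0.52 (adjusted p = 0.0115) from con-4c to si-2c. In the 2c contrast its difference was 0.04, with a 95% interval of -0.21 to 0.29, and it passed there with library totals as the only scaling (0.44, adjusted p = 0.00406, edgeR), as it did in the knockdown contrast (-0.41, adjusted p = 0.00735, edgeR). CNOT8 made up 6.13% ± 0.277 of the counts of the CAF1-type pair in con-4c, against 4.24% ± 0.462 in si-2c, 3.81% ± 0.467 in si-4c and 3.73% ± 0.311 in con-2c.

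CNOT6L (ENSSSCG00000008989; chr8:73191721-73335779) was at 156, 150 and 164 CPM in si-2c, above all con libraries, which ran from 119 to 135. In si-4c it was at 117, 149 and 141 CPM, overlapping the con groups. It rose by 0.26 (SE 0.09, adjusted p = 0.0333, edgeR) in the 2c contrast and by 0.35 (SE 0.09, adjusted p = 0.0221, edgeR) from con-4c to si-2c. With library totals as the only scaling they were 0.66 (adjusted p = 0.00013, edgeR) and 0.47 (adjusted p = 0.0108, edgeR). With TMM scaling the first was lost when con-2c replicate 1 or 2, con-4c replicate 2 or si-2c replicate 1 or 3 was left out (adjusted p = 0.0507 to 0.128, edgeR) or no filter on low counts was used (adjusted p = 0.0503), and the second without con-4c replicate 1 or 2 or si-2c replicate 1 or 3 (adjusted p = 0.0566 to 0.0967, edgeR). In the knockdown contrast it was at -0.20 (adjusted p = 0.0990, edgeR), a difference that passed in DESeq2 (-0.22, adjusted p = 0.0421), with library totals (-0.58) and with a filter of 10 CPM in 3 libraries (-0.31). Its interaction, -0.12 with TMM scaling (adjusted p = 0.48, edgeR), passed with library totals (-0.77, adjusted p = 0.00044, edgeR) and with that filter (-0.31, adjusted p = 0.0305, edgeR). The 4c contrast, at 0.15, passed without si-4c replicate 1 (0.24, adjusted p = 0.0366, edgeR).

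CNOT6 (ENSSSCG00000014009; chr2:78131236-78202518), the other CCR4-type nuclease, was between 32.9 and 43.4 CPM in all 12 libraries. The groups overlapped throughout, and its log2 difference in the control contrast was -0.09, with a 95% interval of -0.32 to 0.14, and turned to 0.18 with library totals as the only scaling. CNOT6 was at 0.031 in the knockdown contrast and at 0.12 in the interaction, and with library totals it passed in the other direction in both, at -0.35 (adjusted p = 0.0387, edgeR) and -0.53 (adjusted p = 0.0207, edgeR). CNOT6L made up 80.8% ± 0.645 of the counts of the CCR4-type pair in si-2c, against 78.1% ± 1.66 in si-4c, 76.6% ± 1.72 in con-4c and 76.5% ± 2.42 in con-2c.

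In the RefSeq annotation 7 of the 10 genes overlapped another gene, and for 2 of them the neighbour was also in the count table. Whether the counting used strand is not given in the sources used here and the SMART-seq kit does not mark it, so reads in the shared stretches cannot be told apart. VPS37A, which overlaps CNOT7, had mean levels of 192 and 201 CPM in con-2c and si-4c, and of 80.9 and 91.7 CPM in con-4c and si-2c. GEMIN5, which overlaps CNOT8, was at 13.5, 15.9, 20.0 and 17.9 CPM in the same order. Their part in the values of CNOT7 and CNOT8 was not tested.

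ZFP36L2 (ENSSSCG00000038549; chr3:97200395-97203094), which binds AU-rich elements in mRNAs and recruits CCR4-NOT to them, had its lowest mean in con-4c. It was at 2.83, 4.19 and 4.67 CPM in con-2c, at 3.72, 4.05 and 4.00 in si-4c, at 3.88, 2.05 and 1.85 in con-4c and at 4.21, 4.66 and 2.53 in si-2c. It had 57 to 174 counts in a library, and con-4c replicate 1 lay within the other groups while the other 2 con-4c libraries lay below all of them. Its log2 difference was -0.59 (adjusted p = 0.161, edgeR) in the control contrast and 0.59 in the 4c contrast, the latter with a 95% interval of -0.06 to 1.25. Without con-4c replicate 1 the values were -1.002 (adjusted p = 0.0267, edgeR) and 1.01 (adjusted p = 0.0249, edgeR).

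Across the 10 genes, the control contrast gave 4 that rose (BTG1, BTG3, TOB2 and CNOT8) and 1 that fell (BTG4) at an adjusted p under 0.05 in edgeR. Of all genes tested, 35.8% passed there, 20.7% upward and 15.1% downward. Of the 5 adaptors 4 passed, and of the 4 nucleases CNOT8 alone did. The groups did not overlap for 5 of the 10, against 48.6% of all genes. The count of passing genes was thus not far from the background share, and what set the genes apart from each other was the size and direction of the change. The median log2 change was 0.06 over the 10 genes and 0.11 over all genes. With library totals as the only scaling 5 rose and 1 fell, beside 36.6% of all genes (29.2% upward, 7.37% downward).

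In the 2c contrast 4 of the 10 genes rose (BTG1, BTG3, TOB2 and CNOT6L) and BTG4 fell, beside 29% of all genes that passed in edgeR (16.6% upward, 12.3% downward), and the groups did not overlap for 5, against 41.7% of all genes. With library totals as the only scaling 8 passed, 7 upward and 1 downward, beside 37.4% of all genes (33.6% upward, 3.77% downward), whose median log2 change was then 0.52. In the 4c contrast BTG4 rose and BTG1, BTG3, TOB2 and CNOT8 fell, beside 36.8% of all genes (15.1% upward, 21.7% downward), and 6 did not overlap, against 50.9%. With library totals 1 rose and 4 fell there, beside 37% of all genes (7.61% upward, 29.4% downward). In the knockdown contrast BTG4 rose and BTG1, BTG3 and TOB2 fell, beside 28.9% (12.1% upward, 16.9% downward), and 6 did not overlap, against 42.8%. With library totals as the only scaling 1 rose and 7 fell there, beside 36.7% of all genes (3.57% upward, 33.1% downward), whose median was then -0.51. BTG4, BTG1, BTG3 and TOB2 passed in each of these 4 contrasts, which share libraries.

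**Figure D3:**
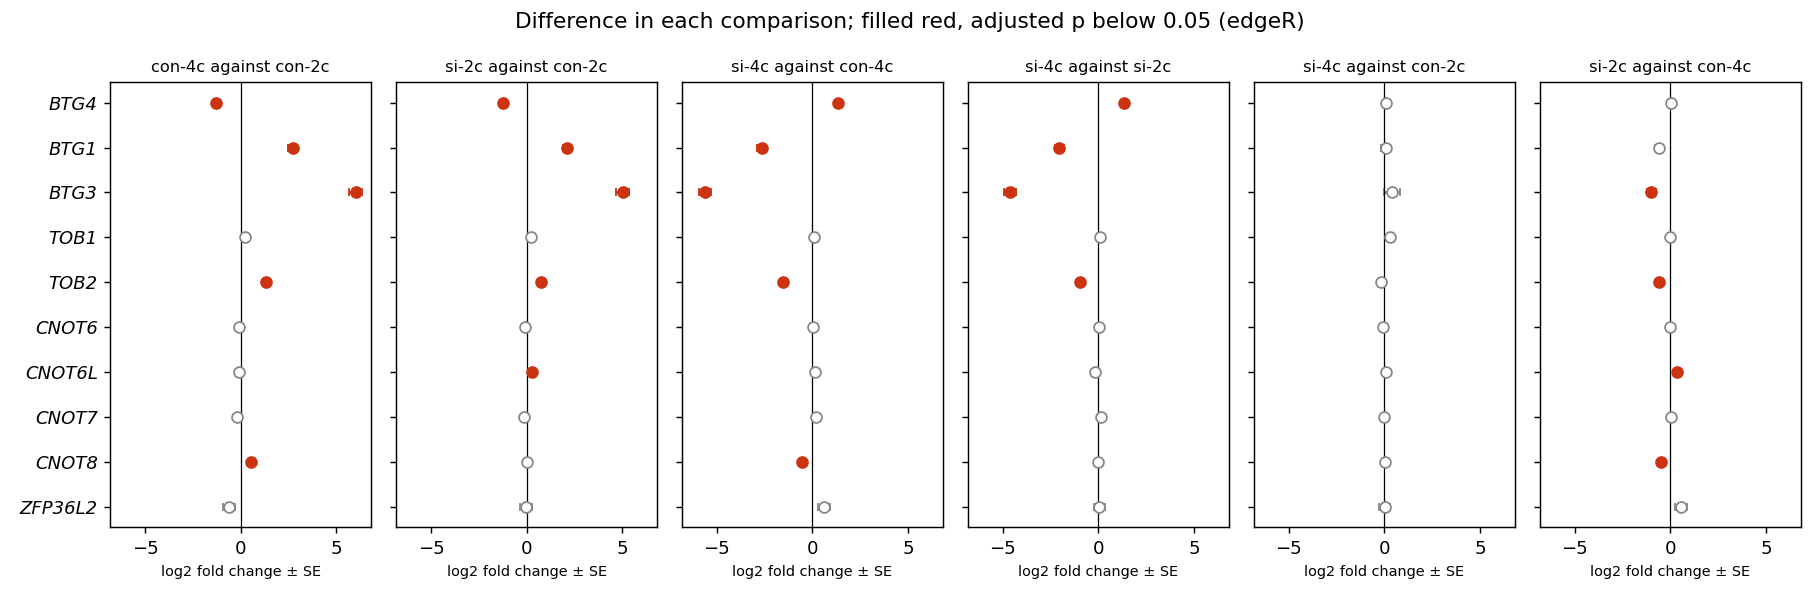
Log2 fold change of each of the 10 genes in the 4 contrasts and the 2 crossed contrasts, with bars of 1 SE, from edgeR. Filled points passed at an adjusted p under 0.05. BTG4 lies opposite to BTG3, BTG1 and TOB2 in the contrasts across the high and low pairs of groups, and the nucleases lie between -0.55 and 0.56.

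The crossed contrasts were made because titles and tissue labels give opposite stages. Between con-2c and si-4c none of the 10 genes passed in edgeR or in DESeq2, and none had an unadjusted p under 0.05 in edgeR. Of all genes, 0.672% passed there, 0.106% upward and 0.567% downward in si-4c. With library totals 0 of the 10 and 0.589% of all genes passed, 0.0834% upward and 0.506% downward. For none of the 10 were the libraries of the 2 groups apart, against 14.1% of all genes. The widest 95% interval was that of BTG3, from -0.46 to 1.26, and the intervals of the 4 nucleases lay between -0.30 and 0.27.

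From con-4c to si-2c, 3 genes fell, BTG3 at -0.998 (SE 0.23, adjusted p = 0.0120, edgeR), TOB2 at -0.57 (SE 0.17, adjusted p = 0.0459, edgeR) and CNOT8, and CNOT6L rose. Of all genes 7.54% passed, 2.22% upward and 5.32% downward, and 5 of the 10 did not overlap, against 27.1%. BTG1 was at -0.60 (adjusted p = 0.106, edgeR) with no overlap of libraries, and passed in DESeq2 (adjusted p = 0.0432). With library totals 1 rose and 2 fell, beside 8.43% of all genes (4.98% upward, 3.45% downward). These calls were fragile, since leaving out any library of con-4c or si-2c in turn left 1 or 2 passing genes in place of 4, while 844 to 1280 of all genes passed in place of 1356, and CNOT8 was lost without con-4c replicate 3 (-0.498, adjusted p = 0.0526, edgeR) or si-2c replicate 1 (-0.43, adjusted p = 0.0683, edgeR). TOB2 was lost with the replicate number as a block (adjusted p = 0.0763, edgeR), with library totals (-0.45, adjusted p = 0.165, edgeR) and with only the groups compared (adjusted p = 0.0502, edgeR).

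The difference between the title stages differed between the si and con arms for 6 of the 10 genes by the interaction term, the knockdown contrast less the control contrast. Of all genes 45.5% passed this test (edgeR), 18.2% positive and 27.3% negative. BTG4 had an interaction of 2.59 (SE 0.15, adjusted p = 4.57e-10, edgeR), BTG3 of -10.64 (SE 0.44, adjusted p = 5.35e-12), BTG1 of -4.77 (SE 0.33, adjusted p = 3.93e-09) and TOB2 of -2.29 (SE 0.24, adjusted p = 7.76e-07). With library totals as the only scaling these were 1.93, -11.31, -5.41 and -2.92. CNOT8 was at -0.58 (SE 0.17, adjusted p = 0.0092, edgeR), or -1.25 with library totals. CNOT7 was at 0.33 (SE 0.12, adjusted p = 0.0305, edgeR), a value that passed in the other direction with library totals (-0.33, adjusted p = 0.0207) and did not pass with a filter of 10 CPM in 3 libraries (0.14, adjusted p = 0.322). Its call was also lost without con-2c replicate 1, con-4c replicate 1, si-2c replicate 1 or 2 or si-4c replicate 2 (adjusted p up to 0.0891, edgeR). The interaction split into 2 positive and 4 negative with TMM scaling, and into 1 positive and 8 negative with library totals, where 50.3% of all genes passed (7.09% positive, 43.2% negative) and their median was -0.88.

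The ratio of each gene to BTG4 within a library was compared between groups, since a change in that ratio depends neither on library scaling nor on gene length. There was 1 count of BTG3 for every 33379 to 100383 counts of BTG4 in con-2c and for every 255 to 279 in con-4c. The corresponding ranges were 449 to 695 in si-2c and 23251 to 62902 in si-4c. The distance between BTG4 and BTG3 was thus far smaller in con-4c and si-2c than in the other groups, with no overlap.

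The nucleases also stood at different ratios to BTG4. BTG4 had 18.3 ± 1.57 counts for each summed count of the 4 nucleases in con-2c, 19.5 ± 2.55 in si-4c, 8.34 ± 0.198 in con-4c and 8.24 ± 1.08 in si-2c (SD, n = 3). For CNOT7 alone, the nuclease with the most counts, the ranges in that order were 21.1 to 24.6, 21.7 to 27.8, 10.6 to 10.9 and 9.42 to 12.2. For CNOT8 they were 583 to 597, 603 to 636, 154 to 175 and 209 to 276. In these ranges con-2c and si-4c never overlapped con-4c or si-2c.

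**Figure D4:**
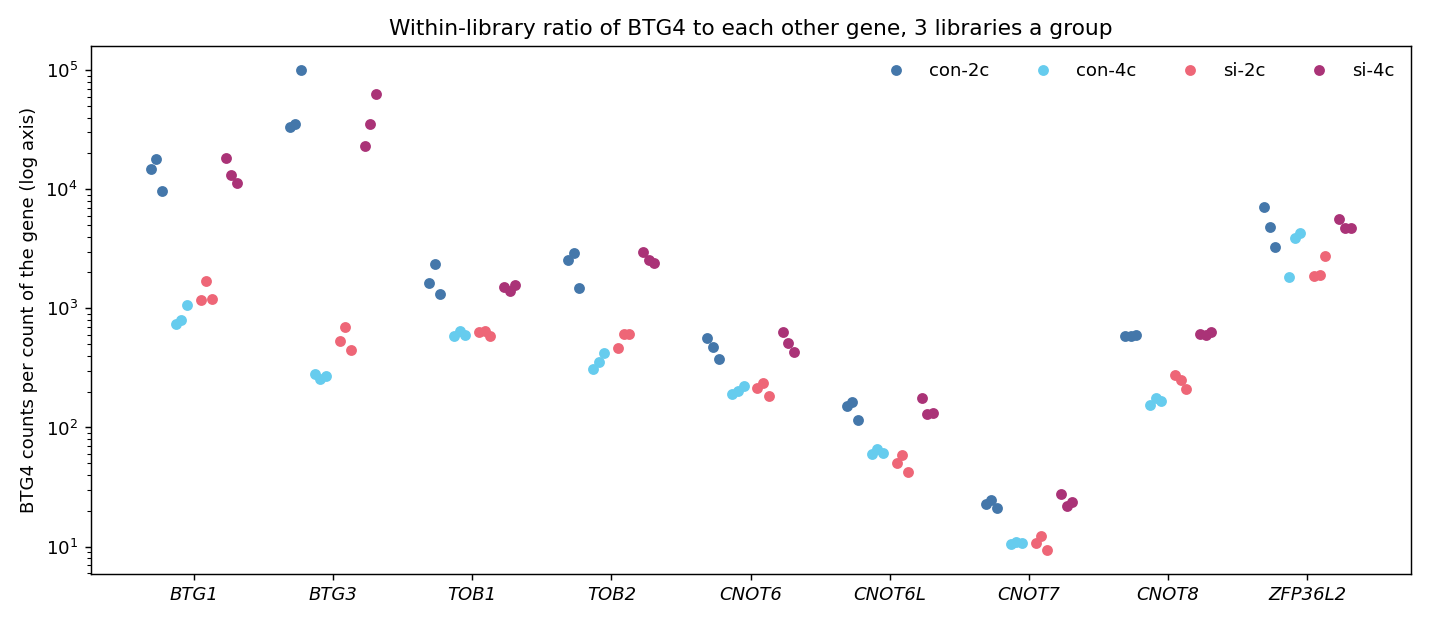
Counts of BTG4 for 1 count of each of the other 9 genes, in every library by group, on a log axis. The ratio to BTG3 moves over the widest range, from between 255 and 279 in con-4c to between 33379 and 100383 in con-2c.

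Fitted with the BTG4 count of each library as its scale, 8 of the 9 other genes changed relative to BTG4 in the control contrast, all upward, beside 70.7% of all genes (70.4% upward, 0.261% downward). The changes were 7.30 for BTG3 (SE 0.34, adjusted p = 3.27e-12, edgeR), 3.96 for BTG1, 2.57 for TOB2, 1.84 for CNOT8 and 1.46 for TOB1 on the log2 scale. They were 1.17 for CNOT6L, 1.16 for CNOT6 and 1.08 for CNOT7 (SE 0.12, adjusted p = 3.00e-07, edgeR). ZFP36L2 was at 0.67 (adjusted p = 0.0962, edgeR) and passed without con-2c replicate 3 or con-4c replicate 3, at 0.98 and 0.88. Since most of the table rose relative to BTG4, the count of 8 says little about these genes, and BTG3, BTG1 and TOB2 stood above the rest by the size of the change.

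The interaction of this ratio was negative for all 9 genes, beside 84.7% of all genes that passed (0.15% positive and 84.6% negative, edgeR). It ran from -13.27 for BTG3 and -7.34 for BTG1 over -4.83 for TOB2 and -3.19 for CNOT8 to -2.26 for CNOT7 and -1.91 for ZFP36L2 (adjusted p = 0.00161, edgeR). From con-2c to si-4c none of the 9 ratios passed in edgeR, with values from -0.30 for TOB2 to 0.33 for BTG3, beside 0.439% of all genes that passed (0.0278% upward, 0.411% downward). The smallest unadjusted p among them was 0.215.

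Likeness of pattern was measured as the root mean square difference of log2 CPM over the 12 libraries after each gene was centred on its own mean. Among 5313 genes with a symbol and a mean of at least 10 CPM, those nearest to BTG4 were YPEL5 at 0.083, GNG10 at 0.092, MND1 at 0.10, PCNA at 0.11 and RPAP3 at 0.12. MND1 acts in meiotic recombination and PCNA is the sliding clamp of DNA replication. MND1 was at 136 ± 16.2 CPM in con-2c, 142 ± 9.44 in si-4c, 55.0 ± 0.647 in con-4c and 62.7 ± 8.20 in si-2c (SD, n = 3). Among the 10 genes, BTG4 was nearest to CNOT7 at 0.58 and farthest from BTG3 at 3.35. CNOT6 and CNOT7 were each other's nearest at 0.15, BTG1 was nearest to TOB2 at 0.62, and BTG3 was nearest to BTG1 at 1.62. All genes were read from the same 12 libraries, and these values are descriptions.

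The wider pathway was read from lists of 56 genes, of which 50 were tested. They held other CCR4-NOT subunits and associated proteins, further BTG and ZFP36 genes, and other deadenylases and related proteins. They also held poly(A)-binding proteins and their regulators, recruiters of the complex and enzymes and factors of poly(A) addition. In the control contrast 14 rose and 11 fell, 50% against 35.8% of all genes (edgeR). In the 4c contrast 12 rose and 16 fell, 56% against 36.8%. The counts were 11 and 5 in the 2c contrast, 32% against 29%, and 7 and 10 in the knockdown contrast, 34% against 28.9%. From con-4c to si-2c 3 rose and 6 fell, 18% against 7.54%. From con-2c to si-4c, TNRC6B at -0.36 and CPSF4 at -1.30 passed, 4% of the 50 beside 0.672% of all genes, and no gene of the lists rose. The lists moved in both directions, with a median log2 change of -0.019 in the control contrast. All counts and calls of the lists, here and below, are from TMM scaling. They were not read with library totals or the other alternatives, so how far small changes depend on scaling was not tested.

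Of the 7 other CNOT genes tested, 2 rose and 1 fell in the control contrast. CNOT9, a subunit that binds recruiter proteins, was at 4.20 ± 0.464 CPM in con-2c, 3.55 ± 0.251 in si-4c, 29.5 ± 3.39 in con-4c and 15.4 ± 3.35 in si-2c (SD, n = 3). The log2 change of CNOT9 was 2.81 (SE 0.17, adjusted p = 1.17e-09, edgeR) in the control contrast and 1.87 in the 2c contrast. CNOT1, the scaffold of the complex, was higher by 0.69, and CNOT11 was lower at -0.61. Of 3 further BTG and ZFP36 genes, BTG2 was higher by 1.36 (adjusted p = 7.37e-04, edgeR) and ZFP36L1 was lower at -0.47. BTG2 was at 2.40 ± 0.153 CPM in con-2c, 3.12 ± 0.179 in si-4c, 6.18 ± 1.79 in con-4c and 4.37 ± 1.42 in si-2c.

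Of 9 genes listed as other deadenylases and related proteins, 3 rose and 1 fell in the control contrast. The one that fell, NOCT, a CCR4-related enzyme, was high in the same groups as BTG4, at 69.7 ± 11.06 CPM in con-2c, 80.7 ± 3.49 in si-4c, 28.1 ± 1.54 in con-4c and 42.0 ± 2.95 in si-2c. The log2 change of NOCT was -1.31 (SE 0.11, adjusted p = 7.08e-08, edgeR) in the control contrast. PARN, TOE1 and PDE12 rose. Among 8 poly(A)-binding proteins and their regulators, 3 were higher and 2 lower. PABPC1, the main cytoplasmic poly(A)-binding protein of somatic cells, was at 1.18 ± 0.860 CPM in con-2c, 0.865 ± 0.311 in si-4c, 17.5 ± 2.27 in con-4c and 11.3 ± 0.390 in si-2c, a log2 change of 3.88 (adjusted p = 2.52e-07, edgeR) in the control contrast.

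Of 11 recruiters of CCR4-NOT tested, 3 rose and 4 fell in the control contrast. RC3H1, the RNA-binding protein roquin-1, was at 9.72 ± 0.880 CPM in con-2c, 8.95 ± 1.66 in si-4c, 35.3 ± 2.98 in con-4c and 24.1 ± 0.917 in si-2c, a log2 change of 1.86 (adjusted p = 1.56e-08, edgeR) in the control contrast. RC3H2 and the m6A reader YTHDF2 were the others that were higher, and PUM2, SAMD4B, TNRC6B and EIF4ENIF1 were lower. Of 12 genes of poly(A) addition, 2 were higher and 2 lower. WDR33, a subunit of the cleavage and polyadenylation factor, was at 30.8 ± 4.62, 35.2 ± 1.49, 61.2 ± 4.74 and 46.2 ± 7.89 CPM in the same order of groups, a log2 change of 0.99 (adjusted p = 8.65e-06, edgeR). CPEB1, the cytoplasmic polyadenylation factor of oocytes, was lower at -0.60.

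**Figure D5:**
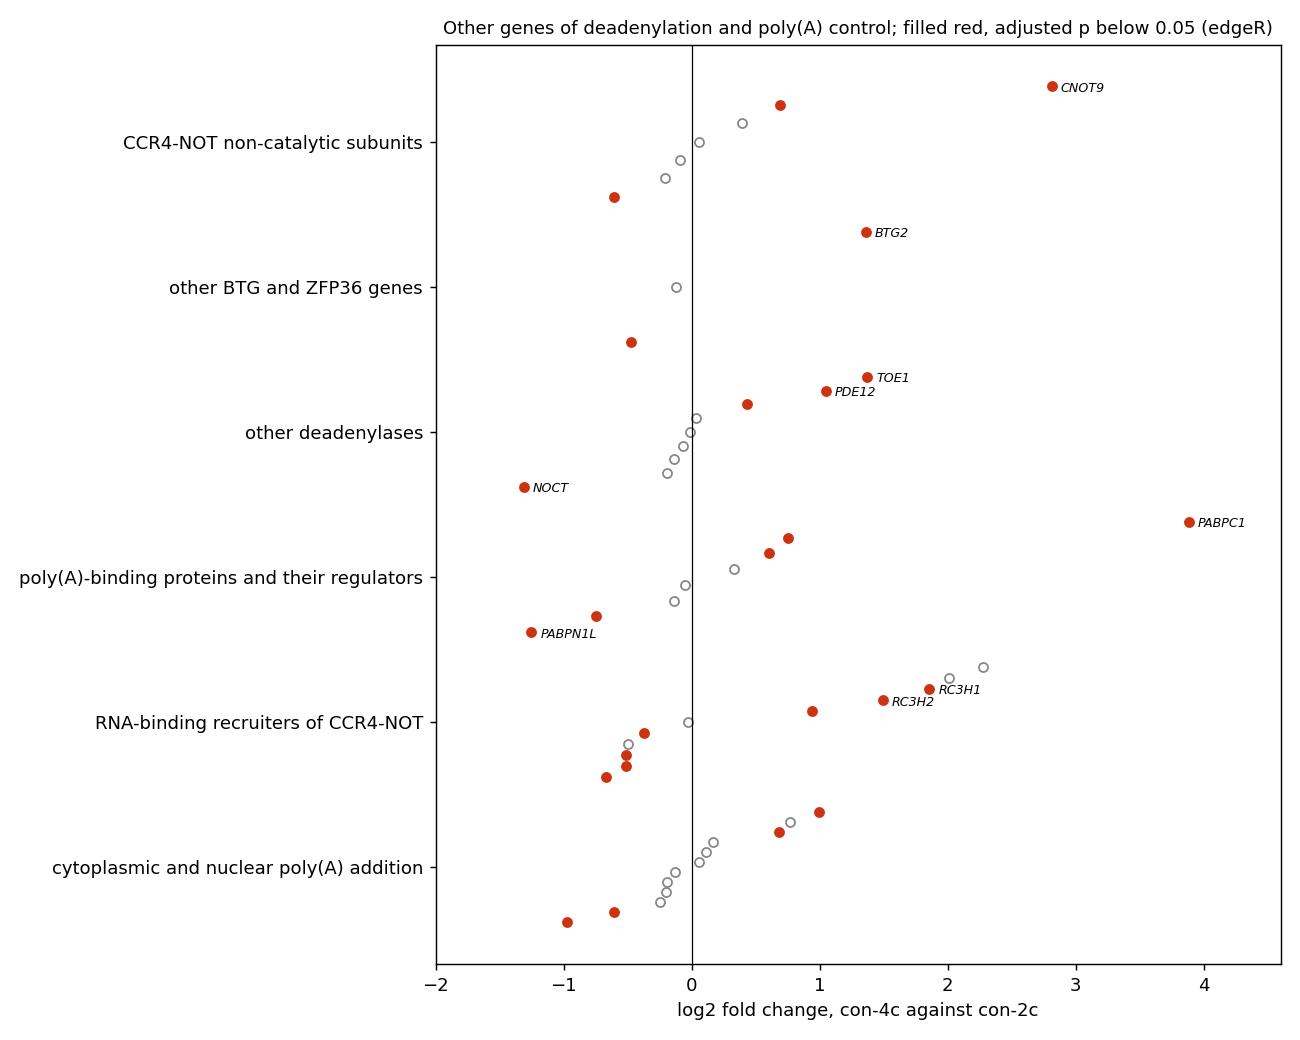
Log2 fold change in the control contrast (con-4c over con-2c) of the 50 tested genes of the deadenylation and poly(A) lists, one row of points for each list, from edgeR. Filled red points passed at an adjusted p under 0.05, and each list has points on both sides of 0, with PABPC1 at 3.88 and CNOT9 at 2.81 farthest to the right.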

How the data were processed

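The authors deposited 1 table of raw read counts per gene for the 12 SMART-seq libraries. Per the submitters' processing notes, the tools were cutadapt 1.9, HISAT2 2.2.1 and StringTie 2.1.6 on the build Sscrofa11.1, with DESeq2 and edgeR also named. SMART-seq primes on poly(A), so a difference in tail length and one in RNA amount cannot be told apart. The 10 genes and all lists were chosen with earlier results of these data known.

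Counts were tested with edgeR 4.0.16 in R 4.3.3: filterByExpr (17995 genes), TMM scaling, 4 group means over all 12 libraries in the quasi-likelihood fit, and Benjamini-Hochberg adjustment. A gene passed at an adjusted p under 0.05. The biological coefficient of variation was 27.3%, and TMM factors ran from 0.852 to 1.21. The script was tested on simulated data. CPM are TMM-scaled and are not per length. The text names all 10 genes, for each list the gene with the smallest p in the control contrast and some others of it that passed, chosen after their values were seen, and the 5 genes most like BTG4. Coordinates are those of RefSeq for Sscrofa11.1, matched by symbol for all 10 genes. Listed genes that matched no symbol in the table are not analysed here, and 1 further gene of the recruiter list is not reported here. Alternatives were library totals without TMM, DESeq2 1.42.0, no filter, a filter of 10 CPM in 3 libraries, only the groups compared, a replicate block and leaving out each library. They were read for the 10 genes and for all genes tested, and not for the pathway lists.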

Additional observations from a re-analysis of the deposited data

Results flagged for a closer look

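For 6 of the 10 genes the difference between the title stages was not the same in the si and con arms, by the interaction term of edgeR's quasi-likelihood fit (adjusted over all genes tested). The interaction was 2.59 (adjusted p = 4.57e-10) for BTG4, which fell from con-2c to con-4c and rose from si-2c to si-4c. It was -10.64 (adjusted p = 5.35e-12) for BTG3, -4.77 (adjusted p = 3.93e-09) for BTG1 and -2.29 (adjusted p = 7.76e-07) for TOB2, all of which went the other way in each arm. It was -0.58 (adjusted p = 0.0092) for CNOT8 and 0.33 (adjusted p = 0.0305) for CNOT7. Of all genes tested, 45.5% passed this test. CNOT7 passed in opposite directions under both scalings, at -0.33 (adjusted p = 0.0207, edgeR) with library totals, and did not pass with a filter of 10 CPM in 3 libraries (0.14, adjusted p = 0.322, edgeR). Titles and tissue labels disagree on the stage in all 12 libraries, so which stages these differences stand for is not settled by the labels.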

How the results depend on the processing

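In the order of the report, the contrasts are the control (con-4c over con-2c), 2c, 4c and knockdown contrasts and the crossed ones. The counts of passing genes moved by over 1.5 times with library totals as the only scaling, from 5 to 8 in the 2c contrast, where those of the whole table went from 5213 to 6727, and from 4 to 8 in the knockdown contrast, where they went from 5203 to 6596. Leaving out 1 library at a time gave 1 to 4 passing genes from con-4c to si-2c in place of 4, with 1 or 2 when the library was one of con-4c or si-2c, where 844 to 1280 of all genes passed in place of 1356. With library totals the median log2 change of all genes moved from 0.11 to 0.38 in the control contrast and from 0.12 to 0.52 in the 2c contrast. Signs turned there for CNOT6 (0.18), CNOT6L (0.19) and CNOT7 (0.089) in the control contrast, CNOT6 (0.29), CNOT7 (0.25) and ZFP36L2 (0.34) in the 2c contrast, TOB1 (-0.19), CNOT6 (-0.23), CNOT6L (-0.11) and CNOT7 (-0.072) in the 4c contrast, TOB1 (-0.32), CNOT6 (-0.35), CNOT7 (-0.24) and ZFP36L2 (-0.32) in the knockdown contrast, CNOT7 (0.017) from con-2c to si-4c, CNOT6 (0.12) from con-4c to si-2c, and CNOT6 (-0.53), CNOT7 (-0.33) and ZFP36L2 (-0.0061) in the interaction. With the stricter filter they turned for CNOT6L (0.0062) in the control contrast, TOB1 (-0.039) and CNOT6 (-0.085) in the 4c contrast, TOB1 (-0.039) and CNOT6 (-0.072) in the knockdown contrast, CNOT8 (-0.0035) from con-2c to si-4c, TOB1 (-0.00051) from con-4c to si-2c and CNOT6 (-0.071) in the interaction, where CNOT7 lost its call (0.14, adjusted p = 0.322, edgeR). DESeq2 gave CNOT6 at -0.015 in the 4c contrast and TOB1 at -0.014 from con-4c to si-2c, where a fit of only the groups compared gave CNOT6 at 0.032. The cause of these reversals was not tested.

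Leaving out 1 library turned the sign of 18 values, none of which had passed. From con-2c to si-4c the ranges were -0.10 to 0.066 for CNOT7, -0.18 to 0.13 for ZFP36L2, -0.061 to 0.20 for BTG1, -0.059 to 0.15 for BTG4, -0.050 to 0.71 for BTG3, -0.14 to 0.080 for CNOT8, -0.17 to 0.025 for CNOT6 and -0.013 to 0.16 for CNOT6L. They were -0.23 to 0.18 for ZFP36L2 and -0.085 to 0.13 for CNOT8 in the 2c contrast, -0.049 to 0.036 for CNOT6, -0.048 to 0.12 for BTG4 and -0.054 to 0.047 for TOB1 from con-4c to si-2c, -0.078 to 0.12 for CNOT6 in the 4c contrast, -0.11 to 0.048 for CNOT8, -0.18 to 0.22 for ZFP36L2 and -0.073 to 0.13 for CNOT6 in the knockdown contrast, and -0.24 to 0.0092 for TOB1 in the interaction. Libraries of the same replicate number did not deviate together (r from -0.050 to 0.029 over 18 pairs, with the same number as the best match in 8). The replicate block gave 3 passing genes in place of 4 from con-4c to si-2c, where 1122 of all genes passed in place of 1356, ZFP36L2 at -0.0051 from con-2c to si-4c, and the same counts in every other contrast.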
